A study of Mus musculus with 4 samples.

Results

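The genes described here are 10 genes that set how much glucose a cell takes up and commits to glycolysis, and whether the pyruvate it yields enters the mitochondrion's oxidative route: Slc2a1, Hk1, Hk2, Pfkl, Pfkp, Pfkfb3, Pfkfb4, Pdk1, Pdk2 and Pdk3. They were taken from the scanner files as every non-control probe whose gene name was a member or an older alias of it, which gave 21 probes for the 10 genes, of 41174 probes and 27729 gene names on the array. RNA came from cultured mouse spermatogonial stem cells, the testis cells that renew themselves and give rise to sperm, of C57/BL6 x DBA/2 F1 origin at age day 5. The controls stayed in their usual culture, without serum and with the growth factors GDNF (40 ng/ml) and FGF2 (5 ng/ml). The treated cells had, for 12 h, no FGF2 but SU5402, an inhibitor of the kinase of FGF receptors; the labels name no other difference between the media, so GDNF was in both. Each of 4 two-colour arrays carried 1 treated sample in the green (Cy3) channel and 1 control sample in the red (Cy5) channel, described as biological replicates. The dyes were never swapped, so a dye effect that belongs to a gene and the treatment cannot be told apart.

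Glucose enters most cells down its gradient through facilitative transporters such as the product of Slc2a1. Hexokinases (Hk1, Hk2) trap it as glucose phosphate, and phosphofructokinase (subunits Pfkl and Pfkp) makes the committed step of glycolysis. The bifunctional enzymes of the Pfkfb family make and break a fructose bisphosphate that activates phosphofructokinase, and the pyruvate dehydrogenase kinases (Pdk1, Pdk2, Pdk3) phosphorylate and shut off the complex that turns pyruvate into acetyl-CoA. Several of these genes are textbook targets of the hypoxia-inducible factors (HIF), which bind a short core sequence in DNA.

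Of the 10 genes, 7 were higher in the cells without FGF2 and with SU5402, 0 were lower by limma's test (1, Pdk2, at an unadjusted p under 0.05), and 3 were not called. The rises were largest for Pdk1 (2.92-fold), Pfkfb3 (2.39-fold), Pfkl (1.94-fold) and Pfkp (1.76-fold), and smaller for Hk1 (1.42-fold), Slc2a1 (1.32-fold) and Hk2 (1.29-fold). Pfkfb4, Pdk2 and Pdk3 did not pass the test, although relatives of each of them did. The second Pdk3 probe was called higher (log2 ratio 0.60). A call is an adjusted p under 0.05 in limma's moderated test of the 4 log2 ratios of treated over control against 0, adjusted by Benjamini-Hochberg over all kept probes, with the brightest kept probe standing for a gene. By the same rule 67.5% of all 18454 genes tested were called, 37.1% being higher and 30.4% lower, and 11.7% were called at least 2-fold higher. The ratio had the same sign on all 4 arrays for 8 of the 10 genes, beside 73.6% of all genes, and treated and control signals did not overlap for 8 of the 10, beside 61.2%. Of the 20 kept probes of these genes, 14 were called higher and none lower, beside 66.4% of all kept probes called, 37.3% higher and 29.1% lower. The median log2 ratio was 0.45 over the 10 genes and 0.023 over all genes tested. The p-values measure the spread between these 4 arrays, and the labels do not say from which animals or cultures each sample came.

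Other cell types' markers moved with the treatment too. Of all genes tested, 37.1% were called higher and 30.4% lower. By limma's test, Sertoli cell markers were higher for 11 of 13 tested and lower for 1, with a log2 of the summed signal of 18.97 to 19.06 in the treated channel and 17.10 to 17.22 in the control channel, and fibroblast or feeder markers were higher for 11 of 12 (20.87 to 20.96 against 19.41 to 19.58). Germ cell markers were lower for 9 of 15 and higher for 1 (17.81 to 17.83 against 18.08 to 18.25), and leukocyte markers lower for 9 of 10 and higher for 1, Aif1 at 0.32 (15.69 to 16.01 against 16.93 to 17.19). None of these lists was at background: 1 Sertoli cell marker had no kept probe and Zbtb16 no probe under that name, and every other marker was well above background in the treated channel on all 4 arrays, as it was in the control channel except Fshr (1 array) and Amh (3 arrays). The defining germ cell genes Ddx4 and Dazl were well above background in both channels of all arrays. The part of cell composition in the ratios of the 10 genes was not tested, and in such bulk RNA more or fewer cells of a type and more or less RNA per cell cannot be told apart.

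Some probe sequences and promoters are shown before the single genes, because the results turn on how probes of 1 gene compare and on which genes move together. Of the 3 Hk1 probes below, the first and the second lie close together and the third lies far from them. The first and the third were called higher while the second was not. Both Pfkfb3 probes and the Pfkp probe were called higher. Letters are the probe sequences of the deposited files, 5′ to 3′, with coordinates in mm9. The Pfkp probe covers 2155 bases of the genome with its 60 bases and so crosses an exon junction. So do the Pfkfb3 probes A_52_P362917 (1414 bases) and A_52_P138126 (2263 bases). The coordinates given for the Hk1 probe A_52_P479599 span 31 bases, fewer than its 60 bases, and where the rest of it lies was not analysed here.
Hk1 probe A_52_P479599 (chr10:61732610-61732640, - strand): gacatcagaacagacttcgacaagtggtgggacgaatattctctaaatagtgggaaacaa
Hk1 probe A_52_P674530 (chr10:61732735-61732794, - strand): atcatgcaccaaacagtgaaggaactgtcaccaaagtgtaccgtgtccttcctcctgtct
Hk1 probe A_52_P9337 (chr10:61778201-61778260, - strand): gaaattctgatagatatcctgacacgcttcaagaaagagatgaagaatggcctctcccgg
Pfkfb3 probe A_52_P362917 (chr2:11404189-11405602, - strand): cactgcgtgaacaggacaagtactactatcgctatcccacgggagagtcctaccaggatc
Pfkfb3 probe A_52_P138126 (chr2:11411973-11414235, - strand): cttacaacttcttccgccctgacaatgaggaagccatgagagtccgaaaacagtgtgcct
Pfkp probe A_51_P378856 (chr13:6581718-6583872, - strand): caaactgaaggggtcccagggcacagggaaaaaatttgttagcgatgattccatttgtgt

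The promoters shown are those of the 4 genes with the largest rises and of Pdk2 and Pdk3, whose brightest probes were not called. Pdk2 was borderline (adjusted p 0.0516 by limma's test), and the second Pdk3 probe was called higher (0.60, adjusted p 0.00796). Each is the 250 bases before a gene's start in RefSeq's GRCm38.p6 table, 5′ to 3′ in the direction of transcription, and for genes with more than 1 start the most upstream is given. Capitals mark the letters ACGTG or GCGTG on either strand, the core sequence that HIF is known to bind; CACGTG, the palindrome bound by Myc and other E-box factors, contains the first of them.
Pdk1 (chr2:71872974-71873223, + strand): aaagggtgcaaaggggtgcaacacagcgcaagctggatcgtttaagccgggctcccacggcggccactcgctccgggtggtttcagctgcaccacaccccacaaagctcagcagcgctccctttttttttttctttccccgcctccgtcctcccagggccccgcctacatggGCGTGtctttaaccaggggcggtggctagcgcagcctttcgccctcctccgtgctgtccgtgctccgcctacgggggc
Pfkfb3 (chr2:11553930-11554179, - strand): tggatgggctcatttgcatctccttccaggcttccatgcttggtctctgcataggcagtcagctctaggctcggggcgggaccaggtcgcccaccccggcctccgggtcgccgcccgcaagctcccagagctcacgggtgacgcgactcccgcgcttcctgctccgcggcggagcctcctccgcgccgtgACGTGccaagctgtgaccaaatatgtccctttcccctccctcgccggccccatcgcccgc
Pfkl (chr10:78009808-78010057, - strand): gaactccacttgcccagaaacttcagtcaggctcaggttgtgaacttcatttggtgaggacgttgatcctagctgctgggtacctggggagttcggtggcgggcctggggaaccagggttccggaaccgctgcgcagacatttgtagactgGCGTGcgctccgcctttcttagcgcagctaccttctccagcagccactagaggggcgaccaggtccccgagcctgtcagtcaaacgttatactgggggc
Pfkp (chr13:6648772-6649021, - strand): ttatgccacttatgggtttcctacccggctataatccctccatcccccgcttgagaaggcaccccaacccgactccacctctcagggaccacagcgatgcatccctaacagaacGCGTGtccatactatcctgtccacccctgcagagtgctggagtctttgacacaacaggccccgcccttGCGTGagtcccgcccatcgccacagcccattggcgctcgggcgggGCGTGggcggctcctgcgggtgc
Pdk2 (chr11:95041372-95041621, - strand): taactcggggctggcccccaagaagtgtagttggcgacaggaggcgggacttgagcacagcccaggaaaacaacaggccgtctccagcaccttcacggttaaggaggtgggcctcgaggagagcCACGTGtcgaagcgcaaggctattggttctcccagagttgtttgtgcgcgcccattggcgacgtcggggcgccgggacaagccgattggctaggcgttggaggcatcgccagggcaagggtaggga
Pdk3 (chrX:93832151-93832400, - strand): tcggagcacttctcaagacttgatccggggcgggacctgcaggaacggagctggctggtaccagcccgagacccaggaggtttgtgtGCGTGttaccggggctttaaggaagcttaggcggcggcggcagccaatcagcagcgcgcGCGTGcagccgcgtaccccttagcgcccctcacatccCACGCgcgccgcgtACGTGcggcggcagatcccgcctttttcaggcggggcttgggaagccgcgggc
All 10 genes were in the table, with 14 starts in all. At least 1 match to ACGTG or GCGTG stood before 11 of the 14 starts, and 38.6% of all 32851 starts in the table held such a match in a window of this length. ACGTG stood before 6 of the 14 starts, in 5 genes (Slc2a1, Hk2, Pfkfb3, Pdk2 and Pdk3), beside 16.6% of all starts. GCGTG stood before 8 of the 14 starts, in 8 genes, beside 28.2% of all starts. The shares over all starts were not matched for base composition. CACGTG was found before 1 start of Pfkfb3 and 1 start of Pdk2, beside 6.02% of all starts. The genes not called on their brightest probe hold these letters as the risen genes do. Pdk3 has 4 matches, at 163, 104, 67 and 53 bases before its start, while Pdk1 has 1, at 78 bases, and Pfkl has 1, at 99 bases. A match describes the letters of this window and is no evidence that a factor binds there.

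The transporter Slc2a1 is measured by probe A_51_P464738 (chr4:118809864-118809923, + strand, in mm9 as for all probes below). The log2 ratios of treated over control on arrays 1 to 4 were 0.12, 0.35, 0.77 and 0.38. The log2 signal, after scaling between channels, was 16.75, 16.43, 16.15 and 16.55 in the control channel and 16.87, 16.78, 16.93 and 16.92 in the treated channel. Every treated value lay above every control value, by as little as 0.029 at the nearest point. The spread lay in the control channel (SD 0.25, n = 4), where array 3 was lowest, more than in the treated channel (SD 0.068, n = 4). The mean ratio was 0.41 ± 0.10 (SE, n = 4), a 1.32-fold rise with an adjusted p of 0.00684.

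Of the hexokinases, Hk2 is the isoform that many cells raise when they increase glycolysis, and Hk1 is the widely expressed one. Hk2 has 1 probe, A_51_P204080 (chr6:82675056-82675115, - strand), with ratios of 0.10, 0.44, 0.52 and 0.38 on arrays 1 to 4. Its control signals ran from 15.25 to 15.52 and its treated signals from 15.61 to 15.96, so the groups did not overlap, but on array 1 the channels lay only 0.10 apart. The mean was 0.36 ± 0.086 (SE, n = 4), a 1.29-fold rise with an adjusted p of 0.00462. The brightest Hk1 probe, A_52_P102773 (chr10:61731916-61731975, - strand), gave 0.71, 0.26, 0.52 and 0.52, a mean of 0.50 ± 0.087 (SE, n = 4) and an adjusted p of 7.16e-04. Its lowest treated signal was 15.83 and its highest control signal 15.70. The calls of Slc2a1, Hk2 and the brightest Hk1 probe depend on how the arrays are normalized. With each array centred on its median in place of the loess curve, the ratio of Slc2a1 was -0.088 (adjusted p = 0.50), that of Hk1 0.13 (adjusted p = 0.31) and that of Hk2 0.026 (adjusted p = 0.84). All 3 are bright probes, and the 935 genes at least as bright as Hk2 had a median ratio of -0.060 with the loess curve, -0.50 with median centring and 0.087 in the scanner's processed signals, which use a dye normalization of their own, after each array was centred on its median. In those centred signals the 3 genes were called higher, with ratios of 0.65 for Slc2a1, 0.53 for Hk1 and 0.37 for Hk2. In the scanner's log ratio, without that centring, they were 0.54, 0.42 and 0.26 (adjusted p 0.0436 for Hk2) and were also called.

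Hk1 has 6 probes on the array, and they do not all give the same call. Probes A_52_P479599 (mean 0.64, adjusted p 9.86e-05) and A_52_P9337 (mean 0.49, adjusted p 0.0012) were called higher beside the brightest. With median centring both were still called by limma's test, at 0.65 (adjusted p 2.29e-06) and 0.45 (adjusted p 9.14e-04), while the brightest was not. The other two kept probes were not called: A_52_P674530 gave 0.32, 0.57, -0.14 and 0.28 with a mean of 0.26 (adjusted p = 0.063), and A_51_P249024 gave 0.29, 0.56, -0.22 and 0.17 with a mean of 0.20 (adjusted p = 0.16). In both, array 3 alone lay below 0, and without array 3 both were called, at 0.39 and 0.34. With base composition removed both were called on all 4 arrays, at 0.41 each (adjusted p 0.00555 and 0.00581 by limma's test). With median centring A_52_P674530 was called (0.28, adjusted p 0.0269) and A_51_P249024 was not (0.22, adjusted p 0.0946). The control channel of A_52_P9337 was well above background on 1 array only, while its treated channel was on all 4. The sixth probe, A_52_P87141, lies most upstream in the gene (chr10:61821119-61821178) and was not well above background in either channel on any array, so it is the only one of the 21 probes that was not kept.

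**Figure D1:**
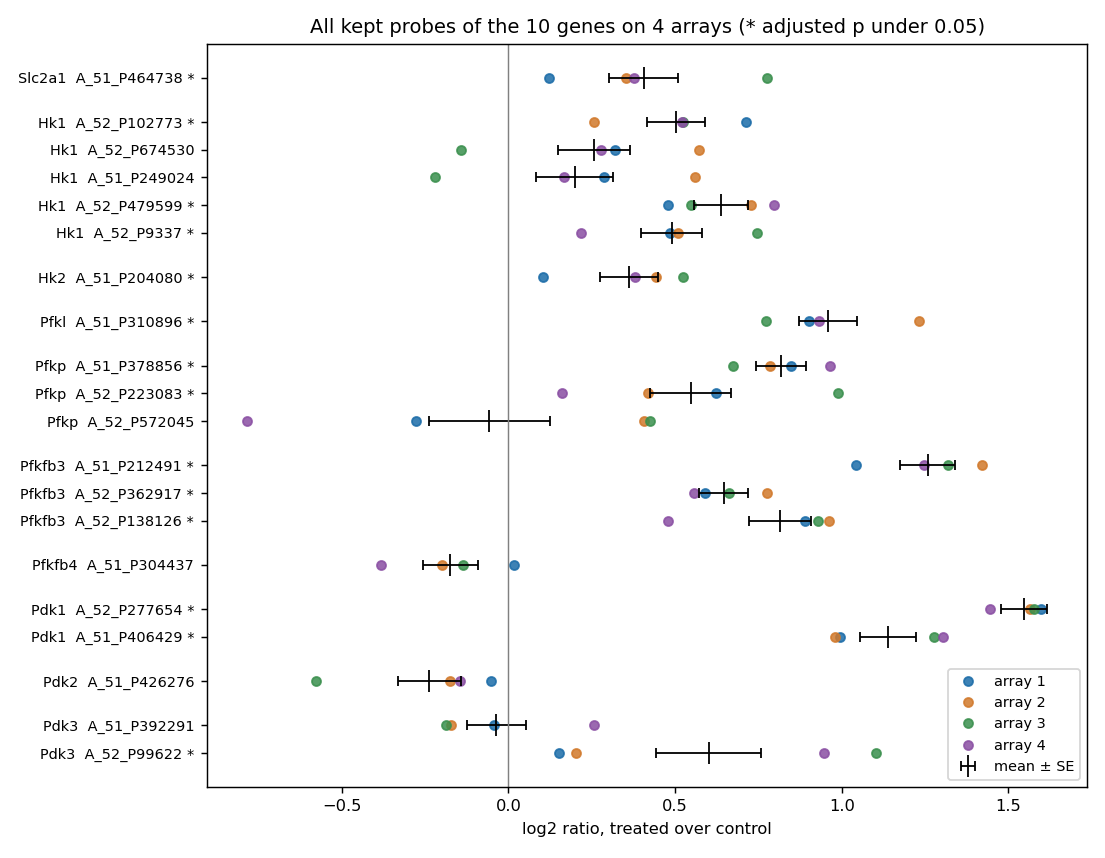
Log2 ratio of treated over control (x axis) for the 20 kept probes of the 10 genes (y axis, brightest probe of a gene first); dots are the 4 arrays, bars the mean ± SE of limma's fit, and an asterisk marks an adjusted p under 0.05. All dots of Pdk1, Pfkl and Pfkfb3 lie right of 0, while some probes of Hk1, Pfkp and Pdk3 have dots on both sides.

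Both phosphofructokinase subunits rose. Pfkl, the subunit named for liver, is measured by A_51_P310896 (chr10:77450926-77450985, - strand), with ratios of 0.90, 1.23, 0.77 and 0.93. Its control signals were 13.84, 13.71, 14.09 and 13.88 and its treated signals 14.74, 14.95, 14.87 and 14.81, so the lowest treated sample stood 0.65 above the highest control sample on the log2 scale. The mean was 0.96 ± 0.088 (SE, n = 4), with an adjusted p of 1.26e-05. Pfkp, the subunit named for platelets, gave 0.85, 0.78, 0.67 and 0.96 on its brightest probe, A_51_P378856 (chr13:6581718-6583872, - strand), a mean of 0.82 ± 0.076 (SE, n = 4) and an adjusted p of 1.39e-05. Treated signals of that probe lay between 13.25 and 13.31 and control signals between 12.32 and 12.59. A second Pfkp probe, A_52_P223083, was also called higher (mean 0.55, adjusted p 0.00322), and its groups did not overlap. The third, A_52_P572045, had no common direction (-0.28, 0.41, 0.42 and -0.78, mean -0.058, adjusted p 0.79), and its groups overlapped. The third phosphofructokinase subunit, Pfkm, named for muscle, is outside the 10 genes and gave 0.11 ± 0.070 (SE, n = 4; adjusted p 0.18).

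Pfkfb3, the Pfkfb isoform whose kinase activity far exceeds its phosphatase activity, rose on all of its 3 probes. The brightest, A_51_P212491 (chr2:11393579-11393638, - strand), had control signals of 12.31, 12.03, 12.29 and 12.28 and treated signals of 13.35, 13.45, 13.61 and 13.53. Its ratios were 1.04, 1.42, 1.32 and 1.25, with a mean of 1.26 ± 0.082 (SE, n = 4) and an adjusted p of 1.26e-06, and no treated sample came within 1.04 of a control sample. The probes A_52_P362917 and A_52_P138126, whose sequences are given above, had means of 0.65 (adjusted p 5.00e-05) and 0.81 (adjusted p 5.58e-05); their control channels were well above background on 3 of 4 arrays, so these ratios rest in part on dim spots. Pfkfb4, a second isoform and also known as a hypoxia target in other cells, did not move with it: probe A_51_P304437 (chr9:108934627-108934686, + strand) gave 0.02, -0.20, -0.14 and -0.38. Its mean was -0.17 ± 0.083 (SE, n = 4) with an adjusted p of 0.0896, and its treated signals of 10.84 to 10.98 overlapped the control signals of 10.93 to 11.32. In the scanner's own log ratio, which shifts the median of all genes by -0.15, Pfkfb4 was called lower (-0.38, adjusted p 0.00615), and with the processed signals centred on each array's median it was called lower as well (-0.27, adjusted p 0.0278).

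Pdk1, the kinase whose induction is known to keep pyruvate out of the mitochondrial oxidative route, showed the largest rise of the 10 genes. On probe A_52_P277654 (chr2:71741820-71741879, + strand) the control signals were 13.22, 13.31, 13.13 and 13.19, and the treated signals were 14.82, 14.88, 14.71 and 14.64. The ratios of 1.60, 1.56, 1.58 and 1.44 differed little between arrays. Their mean was 1.55 ± 0.070 (SE, n = 4), with an adjusted p of 1.39e-07, and 94.9% of all genes tested had a lower ratio. The second probe, A_51_P406429, gave 1.00, 0.98, 1.28 and 1.30, a mean of 1.14 and an adjusted p of 3.03e-06. Its treated group also lay wholly above the control group, and the fold was 2.20 against 2.92 on the brighter probe.

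Pdk2, the most widely expressed kinase of the family, was not called. Probe A_51_P426276 (chr11:94887980-94888039, - strand) gave -0.05, -0.18, -0.58 and -0.15, a mean of -0.24 ± 0.095 (SE, n = 4) and an adjusted p of 0.0516. Its treated signals of 8.54 to 8.69 lay just under the control signals of 8.72 to 9.25, with array 3 apart from the rest. Pdk2 is thus a borderline value: it was called lower under 7 of 14 alternatives, which are not all separate. The scanner's log ratio and the series matrix hold the same values (-0.49 in both), and the centred processed signals (-0.38) are the same signals with each array shifted. With the trend over the probes' base composition removed Pdk2 was -0.027 (adjusted p = 0.79). Pdk3, on the X chromosome, gave different readings on its 2 probes. The brighter, A_51_P392291 (chrX:91010227-91010286, - strand), gave -0.04, -0.17, -0.19 and 0.26, with a mean of -0.036 and an adjusted p of 0.74. The other, A_52_P99622 (chrX:91010552-91014244), gave 0.15, 0.20, 1.10 and 0.95, a mean of 0.60 ± 0.16 (SE, n = 4) and an adjusted p of 0.00796. Its call was lost in the scanner's log ratio (0.43, adjusted p 0.0629 by limma's test) and the series matrix. In the centred processed signals the probe was called (0.54, adjusted p 0.0285). The treated signals of that probe were steady, from 13.06 to 13.23, while its control signals were 12.93 and 12.86 on arrays 1 and 2 and 12.06 and 12.29 on arrays 3 and 4. Over all genes with at least 2 kept probes, 61.7% had the same call on the brightest and the second brightest.

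**Figure D2:**
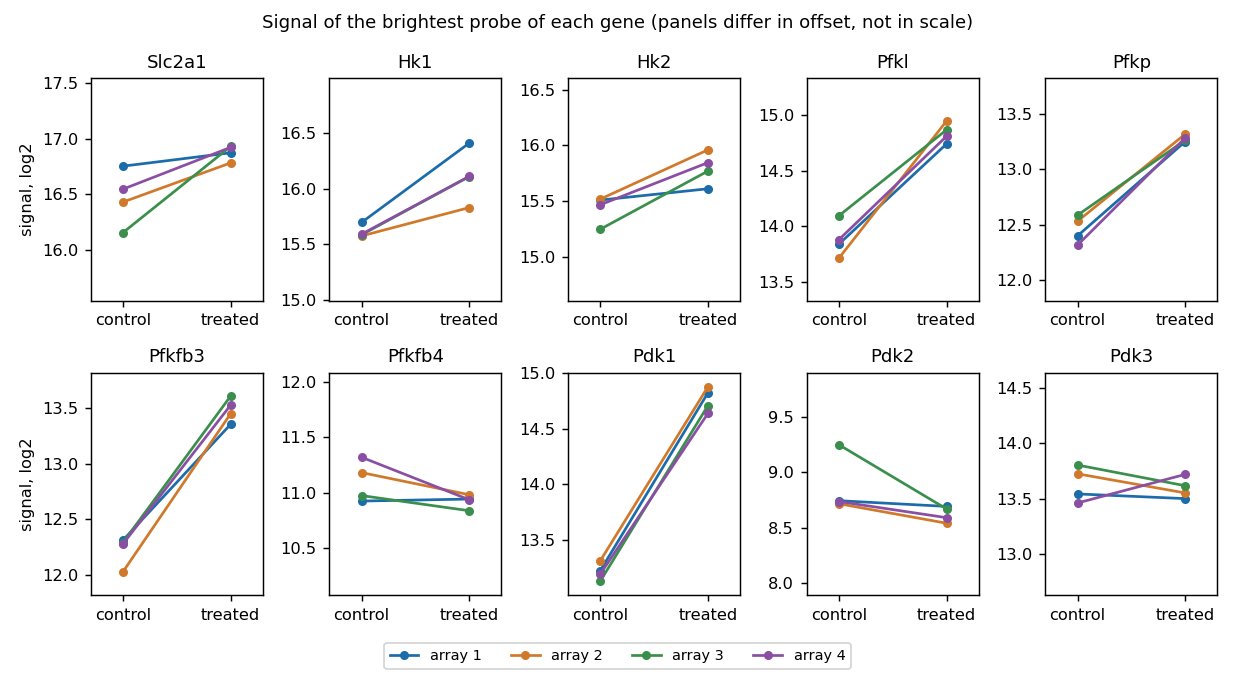
Log2 signal of the brightest probe of each gene in the control and treated channel (y axis, after loess and scaling between channels); each line joins the channels of 1 array, and every panel spans the same number of log2 units. The lines of Pdk1, Pfkfb3, Pfkl and Pfkp are steep and nearly parallel, and those of Pdk3 cross. Those of Pfkfb4 and Pdk2 tilt down, except the nearly flat Pfkfb4 line of array 1, and the Pdk2 line of array 3 is the steepest of them.

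Within the families, the difference between isoforms was tested on the 4 within-array differences. An exact permutation test of their signs was used, over 6 pairs. With 4 arrays this test cannot give a p below 0.125, and Benjamini-Hochberg adjustment cannot lower it, so no pair could pass. Pfkfb3 exceeded Pfkfb4 on 4 of 4 arrays by 1.43 ± 0.28 (SD, n = 4), with differences from 1.02 to 1.63 (exact p = 0.125, adjusted 0.1875). Pdk1 exceeded Pdk2 by 1.78 ± 0.26 and Pdk3 by 1.58 ± 0.27 (SD, n = 4), again on 4 of 4 arrays (exact p = 0.125, adjusted 0.1875, for each). On the other Pdk3 probe, A_52_P99622, Pdk1 exceeded Pdk3 by 0.95 ± 0.53 (SD, n = 4), from 0.48 to 1.45 between arrays, so the size of that difference depends on the probe. The differences of Pfkfb3 from Pfkfb4 and of Pdk1 from Pdk2 were each well over their SD. Pdk2 was below Pdk3 by a mean of -0.20 (range -0.40 to -0.0033, exact p = 0.125), a difference within its SD of 0.23. The ratios of Hk1 and Hk2 differed by 0.14, from -0.19 to 0.61 between arrays (exact p = 0.625, adjusted 0.625), and those of Pfkl and Pfkp by 0.14, from -0.033 to 0.45 (exact p = 0.25, adjusted 0.30).

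The calls that survived every way of scaling tried were those of Pfkl, Pfkp, Pfkfb3 and Pdk1. Across 6 scalings, from the loess values to the scanner's log ratio and median centring, Pdk1 lay between 1.39 and 1.55, Pfkfb3 between 1.09 and 1.26, Pfkl between 0.80 and 1.15 and Pfkp between 0.64 and 0.88, and all were called. With median centring 4 of the 10 genes were called higher, and their median was 0.079. The scanner's log ratio changes the split of all calls: 41.7% of called genes were higher with it and 55.0% with the loess values, while the 10 genes then gave 7 higher and 2 lower. Leaving out any 1 array left 7 genes called higher.

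**Figure D3:**
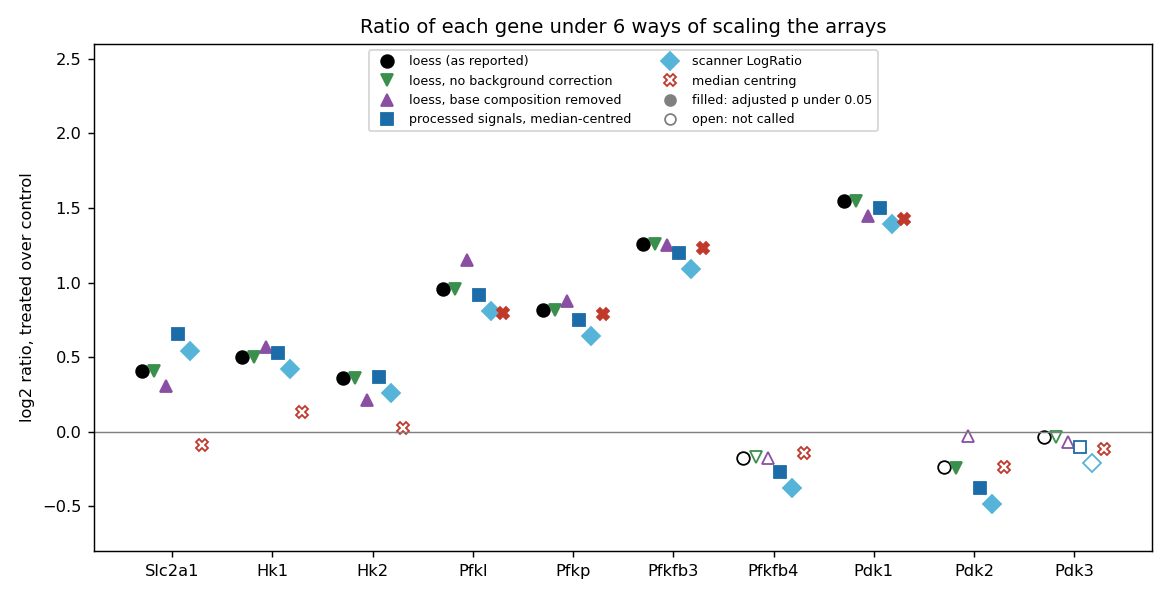
Mean log2 ratio of treated over control (y axis) of the 10 genes (x axis) under 6 ways of scaling the arrays, 1 symbol each; filled symbols have an adjusted p under 0.05. Pdk1, Pfkfb3, Pfkl and Pfkp keep their place, while Slc2a1, Hk1 and Hk2 fall to between -0.088 and 0.13 with median centring.

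The remaining isoforms of these families differed in direction. Pdk4, the fourth kinase of pyruvate dehydrogenase, which fasting induces in many tissues, rose 5.33-fold (2.42 ± 0.071, SE, n = 4; adjusted p 1.71e-08). Pfkfb1 was lower (-0.42, adjusted p 0.00159) and Pfkfb2 slightly higher (0.26, adjusted p 0.0121), though the call of Pfkfb2 was lost in both versions of the scanner's values and with base composition removed. Hk3 was lower by a small amount (-0.24, adjusted p 0.0137; -0.029 and not called with base composition removed), and Hkdc1, whose control channel was above background on 1 array only, was at 0.11 and not called. Gckr, which encodes a regulatory protein of liver, was 2.27-fold lower (-1.18, adjusted p 5.46e-06). Tigar, a phosphatase that opposes the Pfkfb kinases, was at -0.15 (adjusted p = 0.13), and -0.51 on its second probe (adjusted p 3.16e-04). In this list of 9 isoforms and regulators, 3 were higher, 3 lower and 3 not called, with a median of 0.11 (-0.039 in the scanner's log ratio, and -0.019 without Hkdc1). Over all genes, 37.1% were called higher and 30.4% lower.

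Among 10 other genes of the glucose transporter families tested, 5 were called higher and 3 lower (median 0.38), beside 37.1% higher and 30.4% lower over all genes. Of the 5, Slc2a9 and Slc2a12 were kept through the treated channel, since their control channels were above background on 0 and 1 arrays; without these 2 genes the count was 3 higher and 3 lower of 8, with a median of 0.0079. Slc2a3, the high-affinity neuronal type of transporter, was 1.78-fold lower (-0.83 ± 0.076, SE, n = 4; adjusted p 1.25e-05), on the opposite side of 0 from Slc2a1 on every array with the loess values; with median centring both were below 0 (-1.04 and -0.088). Slc2a13 (1.31), a myo-inositol carrier, and Slc2a10 (1.24) rose and were measured in both channels on all 4 arrays. The ratio of Slc2a12 (1.16) rests on control spots that were mostly at background, and it is not ranked. Of the later enzymes of glycolysis, 7 of 13 tested rose and 1 was lower (median 0.35). Pgk1 (1.08) and Eno2 (1.08), which encode a phosphoglycerate kinase and an enolase, had the largest ratios with the loess values, followed by Eno1 (0.88) and Tpi1 (0.87), a second enolase and the triose phosphate isomerase. With median centring all 4 were still called higher, but Pgk1 was 0.54 and Tpi1 0.30, below Eno3 (0.76), an enolase of muscle, and Pgam2 (0.59), a phosphoglycerate mutase. Pkm, which encodes a pyruvate kinase, was at 0.15 and not called on its brightest probe (0.37 on the second, adjusted p 0.0026). With median centring the brightest probe turned to -0.27 (called lower), and the list gave 7 higher and 5 lower. The number higher was 9 with the scanner's log ratio, 10 with the centred processed signals and 11 with base composition removed.

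The next 2 lists stand beside 37.1% of all genes called higher and 30.4% called lower. On brightest probes, the lactate branch was higher in 7 of 9 genes and lower in 0 by limma's test (0 also at an unadjusted p under 0.05). Slc16a1, a carrier of lactate, was -0.15 and not called on its brightest probe, but -0.29 and called lower on its second (adjusted p 0.00991). The median of the list was 0.63. With median centring 6 were higher and 2 lower, and without Slc16a7, kept through its treated channel, 6 of 8 were higher. Ldhb, the lactate dehydrogenase subunit of oxidative tissues, rose 4.46-fold (2.16 ± 0.069, SE, n = 4; adjusted p 2.27e-08), and Slc16a3, the exporter of lactate typical of glycolytic cells, rose 2.06-fold. Ldhd, a mitochondrial dehydrogenase of the other stereoisomer, rose by 1.33. Slc16a7, a carrier of lactate and pyruvate, was at least 2.15-fold higher (adjusted p 2.48e-06), since its control channel was not well above background on any array. Ldha, the subunit of glycolytic tissues, was 0.35 on its brightest probe (adjusted p 0.00229) and 1.16 on its second, and with median centring the brightest probe turned to -0.28 (called lower). The genes that bring pyruvate into the mitochondrion and those of the pyruvate dehydrogenase complex, on which the Pdk kinases act, were split: 3 higher, 4 lower and 4 not called of 11, with a median of 0.022, which turned to -0.14 in the scanner's log ratio. Mpc1, a subunit of the pyruvate carrier, was 1.69-fold higher (0.76), and Dld, a subunit of pyruvate dehydrogenase, 1.40-fold (0.49). Dlat, another subunit, was -0.57 on its brightest probe and 0.37 on its second, and Pdp1, the phosphatase that undoes the action of the Pdk kinases, was -0.41 on its brightest and 1.76 on its second probe (adjusted p 7.97e-08), so neither has a direction here.

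Counts in this paragraph, too, stand beside 37.1% of all genes called higher and 30.4% called lower. In the pentose phosphate route, which branches off after hexokinase, 4 of 8 rose and 1 was lower, the median being 0.11. Median centring gave 2 higher, 2 lower and a median of -0.19. Rpe (1.17, but 0.30 on its second probe, adjusted p 0.00474), Tkt (0.77) and G6pdx (0.44) were higher, of which G6pdx lost its call with median centring (0.23, adjusted p 0.0746), and Pgd, its second dehydrogenase, was 1.33-fold lower (-0.41). Gluconeogenesis had 2 higher of 4 tested (1 of 3 without Fbp1, whose control channel was above background on 1 array), led by Pck2 (0.76), a mitochondrial carboxykinase. The glucose-sensing genes were the list with a negative median (-0.17): Mlxip (-0.81) and Mlxipl (-0.67; its second probe 0.11, not called), transcription factors that respond to glucose phosphate, were lower, and Txnip, their classic target and a brake on glucose uptake, was at 0.15 and not called (adjusted p = 0.16). Myc, which drives glycolytic genes in many dividing cells, was at 0.18 and not called (adjusted p = 0.15).

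Regulators of HIF were higher in 5 of 9 genes and lower in 3 (1 with base composition removed), with a median of 0.51. Hif1a itself was 1.42-fold higher (0.51 ± 0.096, SE, n = 4; adjusted p 0.00126). Egln3 (1.03) and Egln1 (0.81), prolyl hydroxylases that mark HIF for destruction and are themselves induced by it, were higher. Epas1 (0.88; second probe -0.032, not called) and Arnt (0.80; second probe -0.23, adjusted p 0.0388) differed between probes. Of 15 hypoxia targets outside glycolysis, 14 were higher and 0 lower by limma's test (0 also at an unadjusted p under 0.05); the median was 0.89. They were led by Ppp1r3c (1.49), a glycogen-targeting subunit of a phosphatase, Bnip3 (1.45), a mitophagy receptor, P4ha2 (1.33), a collagen prolyl hydroxylase, and Ddit4 (1.09), an inhibitor of mTOR signalling. Under the other scalings between 12 and 14 of the 15 were higher. Kdm3a, a histone demethylase, was not called with the loess values (-0.17, adjusted p = 0.10), but was called lower with median centring (-0.32), the scanner's log ratio (-0.34) and base composition removed (-0.32). Over the 10 lists together, 50 of 93 tested were called higher and 17 lower (median 0.25; 43 and 24 with median centring), beside 37.1% higher and 30.4% lower over all genes.

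**Figure D4:**
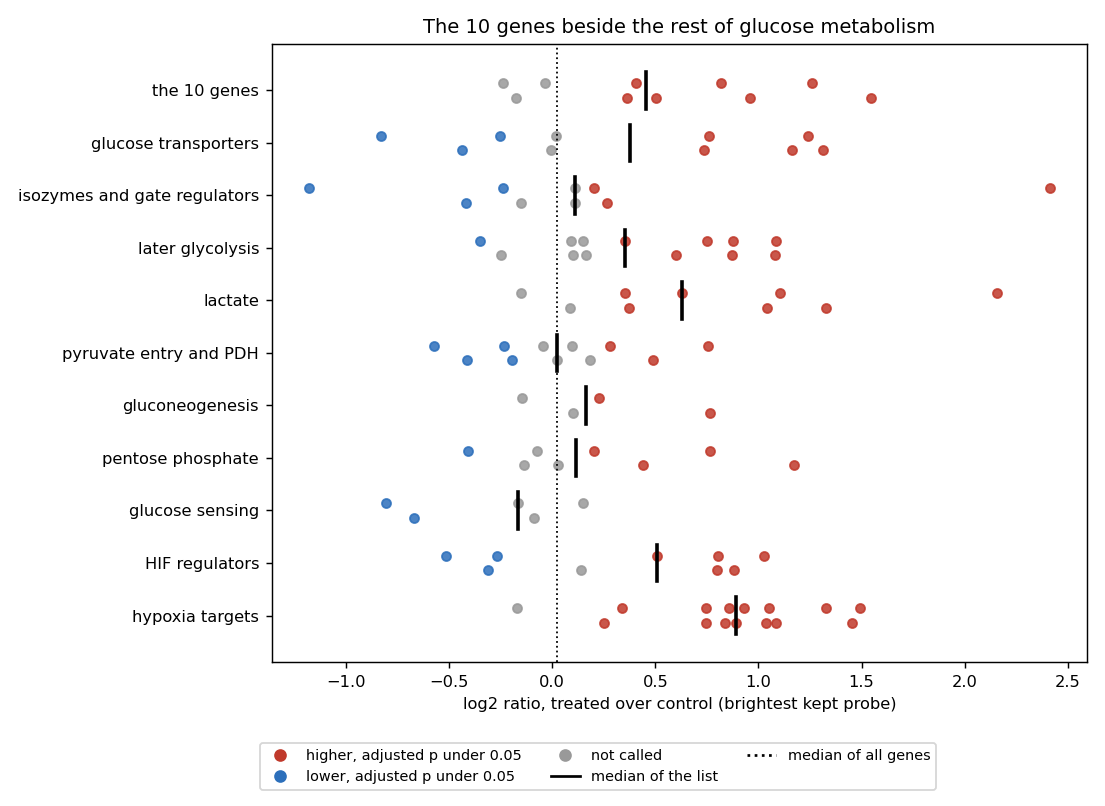
Mean log2 ratio of treated over control (x axis) of the 10 genes and of 10 lists of glucose metabolism and hypoxia genes (y axis), 1 dot a gene; red dots are higher and blue dots lower at an adjusted p under 0.05, bars are list medians and the dotted line the median of all genes. The medians run from -0.17 for glucose sensing to 0.89 for the hypoxia targets, with the 10 genes at 0.45.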

How the data were processed

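RNAs of 4 treated and 4 control samples were hybridised to 4 Agilent mouse arrays, 1 pair an array, all on 1 slide and in 1 scan. Per the file headers, the deposited spot values are intensity values read by Agilent Feature Extraction 10.5.1.1, the processed signals are background-subtracted and dye-normalized intensity, and LogRatio is log10 of red over green. The deposited series matrix holds log2 values; for 100% of 41174 probes they equalled log2 of green over red processed signal within 0.001, with column medians of -0.262, 0.0114, 0.112 and -0.058.

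From the unprocessed intensities, background was corrected by normexp (offset 50) and ratios were normalized by loess within arrays, control spots at weight 0. A probe was kept if either channel lay well above background on 3 arrays or more (27730 of 41174 probes), which gave 18454 genes, each by its brightest probe. Ratios were tested with lmFit and eBayes of limma 3.58.1 (R 4.3.3, package data.table, version 1.17.8), Benjamini-Hochberg over kept probes, threshold 0.05; the procedure was tested on simulated data. Levels per channel are log2 signals after loess and Aquantile scaling. Ratios are relative to each array's central trend, and the number of arrays limits the precision. Names came from the files, updated through RefSeq names of GRCm38.p6; probe coordinates are in mm9, promoters in GRCm38.p6. The exon that each probe lies in is not annotated in the files used here. Alternatives covered background correction, normalization, the filter, probe choice, base composition, the deposited ratios, the moderated fit and each array left out.

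The 10 genes, the 10 pathway lists and the 4 marker lists were chosen with earlier results of these data known. All probes of the 10 genes are given. From each list, up to 4 genes with the largest change among those called with the same sign on all arrays are named, with a set always given (Slc2a3, Hk3, Hkdc1, Pfkm, Pfkfb1, Pfkfb2, Tigar, Pdk4, Pkm, Ldha, Txnip, Hif1a and Myc; 1 more gene of this set is not reported here). Of the 101 genes listed, 99 were on the array and 93 tested.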

Additional observations from a re-analysis of the deposited data

Results flagged for a closer look

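The ratio of the Pfkfb3 probe A_52_P138126 on array 4 was 0.48, far below the 0.89, 0.96 and 0.93 of arrays 1 to 3. The gap to its nearest neighbour was 0.852 of the range of the 4 values, above Dixon's critical value of 0.829. It was the only such value among the 20 kept probes, and chance gives about 1 in 20 groups. Without array 4 the probe's mean was 0.93 in place of 0.81, and it was called higher either way. The brighter Pfkfb3 probes showed no such gap.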

How the results depend on the processing

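Of the single-gene results, those of Pfkl, Pfkp, Pfkfb3 and Pdk1 kept direction and call under every alternative run. With median centring in place of loess, Slc2a1 turned to -0.088, Hk1 was 0.13 on its brightest probe and Hk2 0.026, none of them called. Of the 10 genes, 4 were then higher, and the 935 brightest genes shifted together, as given above. With the scanner's log ratio and with the series matrix, Pfkfb4 (-0.38) and Pdk2 (-0.49) were called lower, and with median-centred processed signals likewise (-0.27 and -0.38), so 2 of the 10 were lower. Pdk2 alone was called lower without background correction (-0.24, adjusted p 0.0491), with 1 probe per gene in the fit (-0.24, adjusted p 0.0465) and with a trended robust fit (-0.24, adjusted p 0.0401), 1 gene of the 10 each time. On second brightest probes, which 5 of the 10 genes have, Hk1 was 0.26 and not called, and Pdk3 turned to 0.60. Of these 5 genes 4 were higher, and 2523 genes were higher and 1850 lower over all 6608 with such a probe. With base composition removed, Pdk1 exceeded Pdk2 by 1.47, and the difference of Pdk2 and Pdk3 turned to 0.042.

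Leaving out each array in turn, Pdk2 ran from -0.30 (without array 1, called lower, which makes 1 gene lower and otherwise 0) to -0.12 (without array 3, not called), and Pdk3 from -0.13 to 0.01, turning to 0.0094 without array 2 and 0.014 without array 3. The Pfkp probe A_52_P572045 ran from -0.22 to 0.19, turning to 0.016 without array 1 and 0.19 without array 4. All other calls of the 10 genes held. No paired analysis was possible beyond the one reported, because the test of the 4 within-array ratios against 0 already pairs each treated sample with the control sample of its array. Leaving dim genes out of the lists, and the other Pdk3 probe, were alternatives added after seeing the data; on that probe Pdk1 exceeded Pdk3 by 0.95 and Pdk2 minus Pdk3 was -0.84. Dim control spots (Hk1 probe A_52_P9337, Pfkfb3 probes A_52_P362917 and A_52_P138126) limit how far those ratios can be read.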
